A study of Mus musculus with 18 samples.

Results

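Cytosolic ribosomal proteins are the protein part of the ribosome that translates nuclear-encoded mRNAs. The genes for them were taken as all probe sets whose only gene symbol in the array's annotation begins with Rps or Rpl followed by a number (with an a, x, y or l form), or is Rplp0, Rplp1, Rplp2 or Rpsa. This rule found 100 of the 22690 probe sets on the array, for 48 genes. Of these, 54 probe sets belonged to 22 genes of the small subunit and 46 to 26 genes of the large subunit. The rule uses no measured value. A filter on low signals left 81 of the 100 for testing, for 45 genes, and the 19 others had mean signals between 4.25 and 128. Rpl14, Rpl3l and Rpl39l had no probe set above the filter. A further 102 probe sets list a ribosomal protein gene beside other symbols, often pseudogenes, and were kept apart.

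The study measured RNA of the oculomotor nucleus, whose motor neurons move the eyes, and of the cervical spinal cord in mice of a model of amyotrophic lateral sclerosis (ALS) and in controls. Its groups were oculomotor nucleus and cervical spinal cord of mutant mice aged 10 weeks, of control mice aged 10 weeks, and of mutant mice aged 6 weeks, with 3 arrays in each group. The labels name neither the mutation nor the strain, do not say how many animals gave each sample, and list no control of 6 weeks. Samples of a group are called independent replicates, with no word on animals, so the spread between them may be partly technical. Every sample, controls included, carries the description ALS model, and both regions are pieces of tissue with neurons, glia and vessels, so fewer cells of a type and less RNA per cell cannot be told apart. One array, replicate 1 of control spinal cord, was not used: its correlation with the other arrays over all probe sets was 0.0104 to 0.0143, against 0.957 to 0.985 among the 17 arrays kept. That group therefore has 2 arrays.

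Most of these proteins are present in a single copy per ribosome, and their genes are transcribed at high rates in nearly every cell. Their mRNAs begin with a C followed by a run of pyrimidines, the terminal oligopyrimidine (TOP) motif, through which the mTOR kinase and the RNA-binding protein Larp1 control their translation. In neurons the ribosomal protein mRNAs are found in the cell body and also in dendrites and axons. A few members have paralogs with restricted expression, and several are mutated in Diamond-Blackfan anaemia, a human disorder of red cell formation.

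The start of the gene is where the TOP motif lies, and the windows below are shown for 8 members on which the results turn: 7 that were called between the regions (all but Rpl27a) and the 2 that were called between the genotypes (Rpl4 and Rpl27a). They are RefSeq sequences of build GRCm38.p6, running 5′ to 3′ on the gene's strand from 10 bases before to 20 bases from the annotated start, with the longest run of C and T in capitals.
Rpsa (chr9:120127756-120127785, plus strand): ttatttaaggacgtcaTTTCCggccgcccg
Rps15 (chr10:80292421-80292450, plus strand): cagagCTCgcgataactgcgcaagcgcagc
Rps6 (chr4:86857348-86857377, minus strand): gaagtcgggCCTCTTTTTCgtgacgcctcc
Rps27l (chr9:66946076-66946105, plus strand): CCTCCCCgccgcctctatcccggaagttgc
Rpl22 (chr4:152325716-152325745, plus strand): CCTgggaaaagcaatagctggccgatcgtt
Rpl22l1 (chr3:28805498-28805527, plus strand): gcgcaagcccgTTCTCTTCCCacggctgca
Rpl4 (chr9:64173377-64173406, plus strand): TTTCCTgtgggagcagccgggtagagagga
Rpl27a (chr7:109519185-109519214, plus strand): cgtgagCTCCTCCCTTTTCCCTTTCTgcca
The capital runs of Rps6, Rpl22l1 and Rpl27a were 10, 10 and 20 bases long, and that of Rpl22 was 3. Rpl22l1 and Rpl22, which resemble each other in protein, thus differed in these letters. Promoter sequences of 300 bases, from 250 before to 50 after the start, were found for 42 of the 48 genes, and where a gene had several starts the first one listed was used, as for Rpl22 and Rps27l above. From 20 before to 30 after the start, 21 of the 42 (50%) held a run of 8 or more C and T, against 18.8% of 27025 genes of all kinds. This stretch is longer than the windows shown, and for some genes it held a longer run than the capitals. Its longest run was 14 bases in Rpl4, 9 in Rps27l, 7 in Rps15 and Rpsa, and 4 in Rpl22. The letters CTTTC on the gene's strand, which can lie within such a run, were found in the same stretch of 13 (31.0%), against 6.46% of all genes. In the whole 300 bases and on either strand, CGGAAG, the core bound by ETS family factors, was found in 29 (69.0%), against 17.2% of all genes, and AAGATGG, part of the site of the factor YY1, in 6 (14.3%), against 6.48%. These are counts of letters and not of bound sites.

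All values below rest on Affymetrix Microarray Suite 5.0 (MAS5) signals, deposited with a trimmed mean of 500 on every array. Where a gene has several probe sets, the text gives the one with the smallest p in the comparison, or names it by the ending of its identifier (_at, _a_at, _s_at or _x_at). Fold changes are on the scale of log2(signal + 25), with their standard error (SE) from limma, and a probe set is called where the p-value adjusted over 13575 tested probe sets is under 0.05. A group has 3 arrays, or 2 for control spinal cord. The ratio of 3′ to 5′ signals of the control probe sets, a measure of RNA integrity, ran from 1.09 to 1.28 for beta-actin and from 0.677 to 0.866 for Gapdh. Markers of spinal position (5 Hox genes) summed to 127 to 302, 236 to 346 and 193 to 276 in the oculomotor groups (mutant and control of 10 weeks, mutant of 6 weeks), against 5092 to 6082, 5659.9 to 6443 and 5494 to 5886 in the matching spinal cord groups. Markers of motor and cholinergic neurons were present in all 17 arrays. In the same order, they summed to 3479 to 4019, 3356 to 3671.5 and 3998 to 4699.5 in the oculomotor groups. The matching spinal cord groups had 9077 to 9647, 8796 to 8928 and 9441 to 10064. Dopamine neuron markers summed to 6259 to 7786, 6038 to 6466 and 5900 to 7603.5 in the oculomotor groups. In spinal cord these were 1024 to 1112, 793 to 900 and 759 to 857. The part of these lists in the regional differences was not tested. Markers of the pituitary gland reached 52444 in mutant oculomotor replicate 2 and 11002 in control oculomotor replicate 3, both of 10 weeks, against 428 to 3188 in the other 15 arrays.

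The ribosomal protein genes changed little as a family. No probe set changed by 2-fold or more in any of the 9 comparisons, and the largest difference was that of Rpl27a, 1.87-fold between genotypes in the oculomotor nucleus. Summed over all 100 probe sets, the members took 2.14% to 2.88% of an array's total signal. In mutants of 6 weeks more small and large subunit genes were called higher in the oculomotor nucleus than lower, and Rpl22 was called lower there in each of the 3 conditions. The difference between genotypes in spinal cord and the differences with age gave no call.

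**Figure D1:**
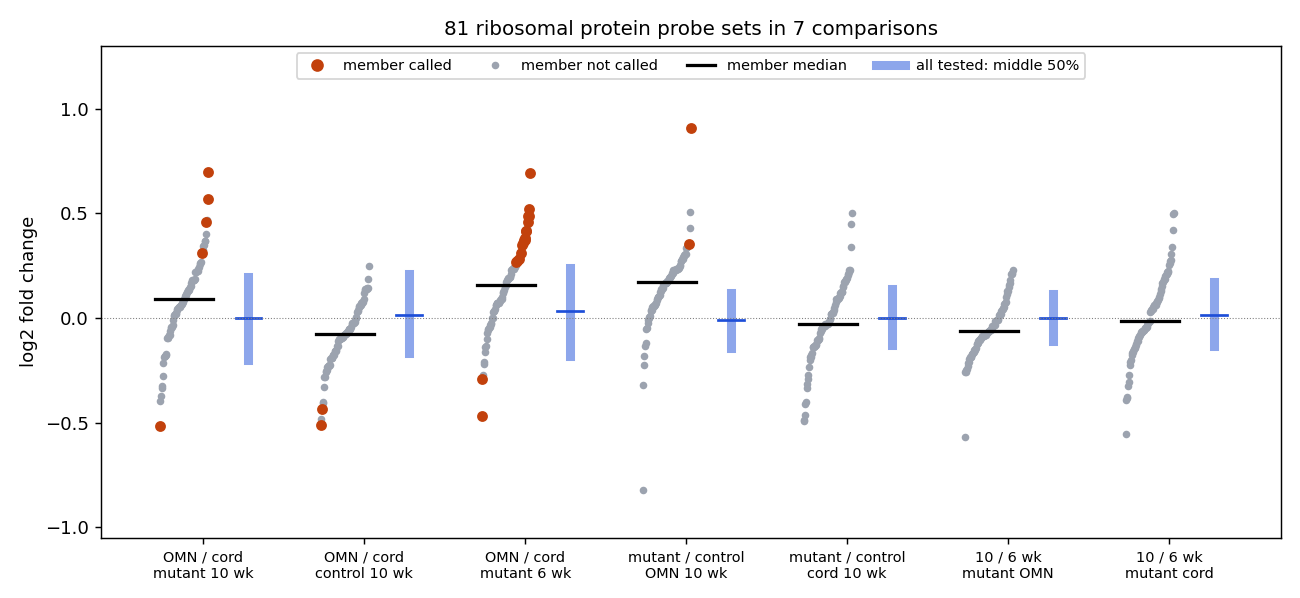
Log2 fold changes of the 81 tested ribosomal protein probe sets (points, in order of size) in 7 comparisons, with the members' median (black line) and the interquartile range of all 13575 tested probe sets (blue bar, with their median). Called members are orange: 18 for the regional difference at 6 weeks, 5 and 2 for those in mutants and controls of 10 weeks, 2 for genotype in the oculomotor nucleus and 0 in the other 3. OMN is the oculomotor nucleus and cord the cervical spinal cord.

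The members' mean level varied within groups, and in each pair of regions the groups overlapped. With each probe set centred on its own mean over the 17 arrays, the mean of the 81 was -0.021, 0.16 and 0.03 on the log2 scale in mutant oculomotor nucleus of 10 weeks, against -0.12, -0.00028 and 0.042 in the matching spinal cord. It was -0.064, -0.18 and -0.044 in control oculomotor nucleus, against 0.064 and -0.083 in control spinal cord. In mutants of 6 weeks it was -0.11, 0.18 and 0.26 in the oculomotor nucleus, against -0.059, -0.0062 and -0.051 in spinal cord. In this last pair the first oculomotor array lay below all 3 spinal cord arrays and the other 2 lay above them, so the groups overlapped, as they did in both pairs of 10 weeks. Between genotypes, all 3 mutant oculomotor arrays of 10 weeks lay above all 3 control oculomotor arrays as deposited. After quantile normalization these means were -0.032, 0.12 and 0.016 in mutants, against -0.0014, -0.13 and 0.00075 in controls, and the groups overlapped.

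**Figure D2:**
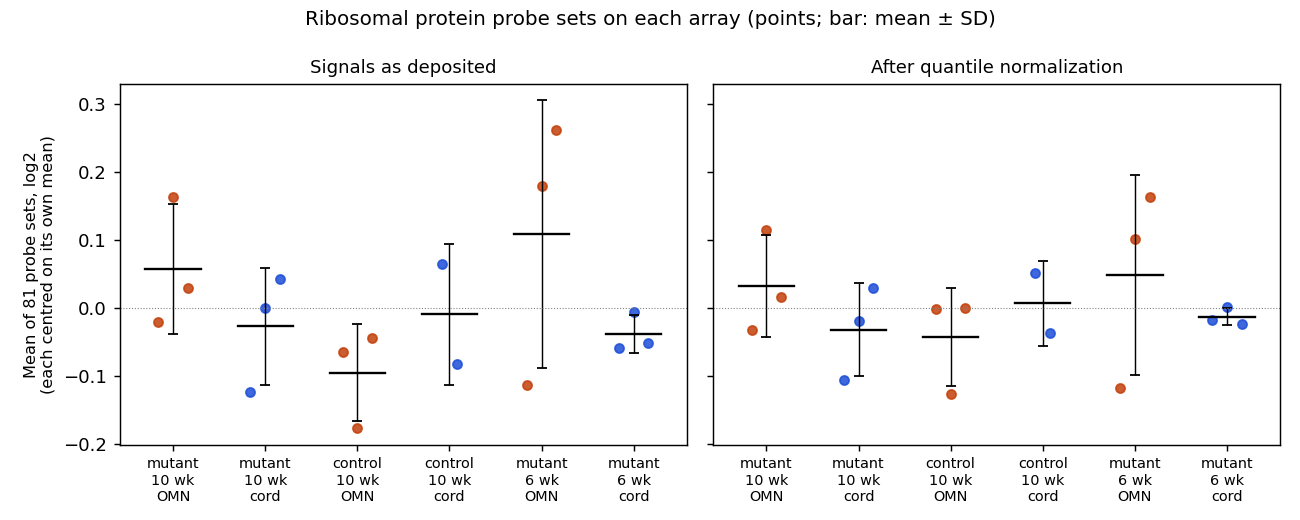
Mean log2 level of the 81 tested ribosomal protein probe sets on each of the 17 arrays (points), with each probe set centred on its own mean, by group (horizontal bar, mean; whisker, SD; orange, oculomotor nucleus; blue, spinal cord). As deposited, the arrays ran from -0.18 to 0.26; after quantile normalization, from -0.13 to 0.16.

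At their extremes, these array levels lay with the bright end of the arrays, with exceptions between. The 3 arrays with the highest member mean (mutant oculomotor replicates 3 and 2 of 6 weeks and mutant oculomotor replicate 2 of 10 weeks) also had the 3 highest 99th percentiles of signal over all probe sets that list no ribosomal protein gene, 6569, 6434 and 6323. The array with the lowest member mean, control oculomotor replicate 2, had the lowest such percentile, 5668. Mutant oculomotor replicate 1 of 6 weeks, however, had the 5th highest percentile, 6249, with a member mean of -0.11, 15th of the 17. Mutant spinal cord replicate 1 of 10 weeks was 10th by percentile and 16th by member mean. Quantile normalization, which gives every array the same distribution, narrowed the members' means to between -0.13 and 0.16, against -0.18 to 0.26 as deposited. Between regions at 6 weeks the brighter 41 members had a larger median than the dimmer 40, 0.23 against 0.096. The same held between genotypes in the oculomotor nucleus, 0.21 against 0.10. After quantile normalization the medians of the brighter and dimmer members were 0.062 and 0.084 for the regions at 6 weeks, and 0.059 and 0.098 for genotype. Between regions in mutants of 10 weeks the brighter members had the smaller median as deposited, 0.072 against 0.13. In controls the medians of the brighter and dimmer members were -0.096 and -0.053. The part of the array's brightness in the member differences was not tested beyond this.

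**Figure D3:**
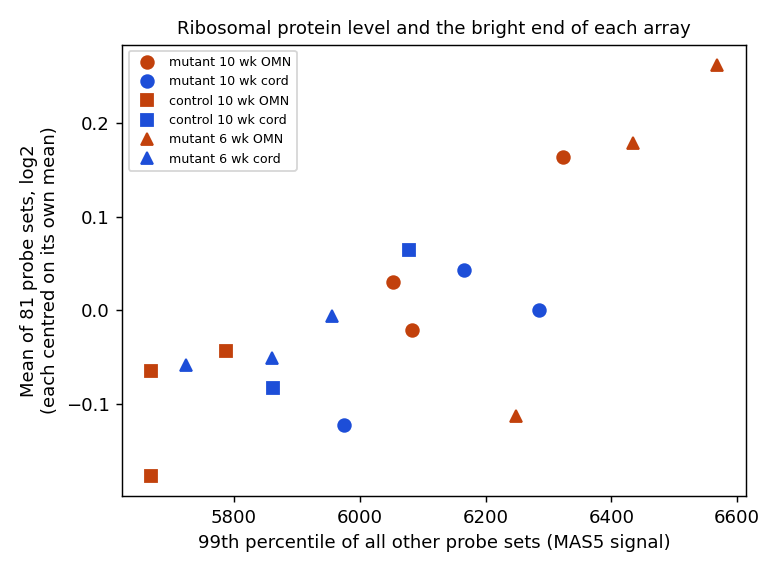
Mean log2 level of the 81 ribosomal protein probe sets on each array (vertical axis, each probe set centred on its own mean) against the 99th percentile of the MAS5 signals of all probe sets that list no ribosomal protein gene (horizontal axis). Each point is an array, with colour for region and shape for genotype and age; the 3 arrays highest on one axis, at 0.16 to 0.26, are the 3 highest on the other, at 6323 to 6569.

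In mutants of 6 weeks, the oculomotor nucleus had 16 of 81 members called higher than spinal cord (19.8%) and 2 called lower (2.47%), and the median member was higher by 0.16. Over all tested probe sets 12.2% were called higher and 11.7% lower, and the median was 0.034. After quantile normalization 5 members were called higher and 1 lower (over all probe sets 10.7% and 11.3%), with a median of 0.077, and after centring each array on its median 7 and 2. The arrays of the 2 groups did not overlap for 19 members that were higher and 1 that was lower, and over all tested probe sets for 20.5% and 16.9%. Leaving out mutant oculomotor replicate 1 of this age raised the total called to 31, and leaving out replicates 2 or 3, or spinal cord replicate 1, lowered it to 7, 9 and 6. For median centring and for these left-out arrays the share of all probe sets called was not computed. Their counts are therefore not a result about the members alone. The Gapdh 3′ to 5′ ratio was 0.849 to 0.866 in these oculomotor arrays, against 0.741 to 0.834 in the spinal cord arrays, and the marker lists of microglia and of meninges had 0 of 9 and 0 of 9 probe sets called higher and 7 and 9 called lower. Astrocyte markers had 3 of 14 called higher and 5 lower, and oligodendrocyte markers 2 of 16 and 4. The part of these in the result was not tested.

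Of the 42 small subunit probe sets, 10 were called higher and 1 lower at 6 weeks. Rpsa, the laminin receptor protein of the small subunit, had signals of 4569.7, 5674 and 5847 in the oculomotor nucleus, against 3728, 4205 and 3714 in spinal cord. All 3 oculomotor arrays lay above the spinal cord arrays, with a log2 fold change of 0.46 ± 0.10 (1.37-fold, adjusted p = 0.00245), and after quantile normalization of 0.36 (adjusted p = 0.00384). Its call was kept without any single array. At 10 weeks Rpsa did not pass the test between regions, at 0.058 ± 0.10 in mutants and -0.052 ± 0.11 in controls.

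Rps15, which lies near the decoding site and is needed for export of the small subunit, was called with both of its probe sets. The _at probe set had 4585, 6786 and 6765 in the oculomotor nucleus, against 4012, 4083 and 4315 in spinal cord, a difference of 0.52 ± 0.12 (adjusted p = 0.00437; quantile-normalized 0.39, 0.00828). The _a_at probe set had 3475, 5109.9 and 5419.7, against 3009, 3522 and 3292, a difference of 0.49 ± 0.14 (adjusted p = 0.0137), with 1 oculomotor array inside the spinal cord range. In both probe sets oculomotor replicates 2 and 3 were far above replicate 1.

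Rps29, a zinc-binding protein of the small subunit, was called with 2 of its 3 tested probe sets. The one with the smallest p had 9519, 11854 and 12319 in the oculomotor nucleus, against 8372, 8189 and 8513 in spinal cord, a difference of 0.42 ± 0.10 (adjusted p = 0.00624), which was 0.19 after quantile normalization (adjusted p = 0.0783). The probe set of Rps29 that was not called had 0.062 ± 0.11. Rps3, at the entry of the mRNA channel, had 6303, 7956 and 7848, against 4711, 5929 and 5898. The arrays did not overlap and the difference was 0.42 ± 0.11 (adjusted p = 0.00998), or 0.25 after quantile normalization (adjusted p = 0.0607), past the threshold no longer.

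The remaining small subunit calls at 6 weeks were for Rps2, Rps7 and 2 probe sets of Rps28, with differences from 0.31 to 0.37. Rps7, which also binds the p53 regulator Mdm2, had 6789.9, 8639 and 9867 in the oculomotor nucleus, against 6449.6, 6281 and 6733 in spinal cord. Oculomotor replicate 1 was only just above the highest spinal cord array there. The difference was 0.36 ± 0.11 (adjusted p = 0.0236), and 0.19 after quantile normalization (adjusted p = 0.132). The other tested probe set of Rps7 had 0.12 and was not called.

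Among the 39 large subunit probe sets, 6 were called higher and 1 lower at 6 weeks. Rpl4, which lines the tunnel through which the new protein leaves, had 8678, 9237 and 9213 in the oculomotor nucleus, against 7171, 7797 and 7336 in spinal cord. The groups did not overlap, with a difference of 0.28 ± 0.08 (adjusted p = 0.0173), but after quantile normalization it was 0.077 (adjusted p = 0.363). Rpl38, which in mouse embryos is needed for the translation of Hox mRNAs, had 0.35 ± 0.10 (adjusted p = 0.0184; quantile-normalized 0.094, 0.454). Rpl10a, a protein of the L1 stalk, Rpl13a, which can leave the ribosome to silence inflammatory mRNAs, and Rpl41 were called higher too, by 0.27, 0.27 and 0.38. After quantile normalization these were 0.18, 0.16 and 0.088, with adjusted p of 0.142, 0.129 and 0.514. As deposited, Rpl13a was called with 1 of its 4 tested probe sets (-0.058 to 0.27) and Rpl41 with 1 of 2 (0.071 and 0.38).

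Rpl22 and its paralog Rpl22l1 gave regional differences of opposite sign that were nearly the same after quantile normalization. Rpl22 binds RNA outside the ribosome as well. Mice without it are viable, and its loss raises the mRNA of Rpl22l1. The _s_at probe set of Rpl22 had 883, 961 and 837 in mutant oculomotor nucleus of 10 weeks, against 1335, 1308 and 1217 in mutant spinal cord. It had 977, 974 and 962 in control oculomotor nucleus, against 1288 and 1354 in control spinal cord. In mutants of 6 weeks it had 911, 847 and 828, against 1151, 1039.9 and 992. In each of the 3 pairs all oculomotor arrays lay below all spinal cord arrays.

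The log2 fold changes of this Rpl22 probe set were -0.52 ± 0.09 in mutants of 10 weeks, -0.43 ± 0.10 in controls and -0.29 ± 0.09 in mutants of 6 weeks, with adjusted p of 3.73e-04, 0.00551 and 0.0221. After quantile normalization they were -0.52, -0.44 and -0.25, all called (adjusted p 2.84e-04, 0.00425 and 0.0446). The call in mutants of 10 weeks was kept without any single array, that in controls ended without spinal cord replicate 3, and that at 6 weeks ended without oculomotor replicates 2 or 3 or spinal cord replicate 1. The suffix _s_at marks a probe set whose probes can match more than 1 transcript. The other probe set of Rpl22, with the suffix _at, had -0.042 ± 0.15 in mutants of 10 weeks, -0.19 ± 0.17 in controls and -0.044 ± 0.15 in mutants of 6 weeks, and was not called, with adjusted p of 0.879, 0.511 and 0.862. The lower level of Rpl22 in the oculomotor nucleus was thus seen with 1 of its 2 probe sets.

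Rpl22l1 went the other way in mutants. It had 3608, 3551 and 3661 in mutant oculomotor nucleus of 10 weeks, against 2365, 2169 and 2787 in mutant spinal cord, a difference of 0.57 ± 0.15 (adjusted p = 0.0136). At 6 weeks it had 3212, 3498 and 4967, against 2996, 2226 and 1953, a difference of 0.69 ± 0.15 (adjusted p = 0.00275). The groups did not overlap in either pair. In controls it had 3206, 3205 and 3694, against 3468 and 3022, and these overlapped (0.054 ± 0.17, adjusted p = 0.885). The difference of the regional differences between mutants and controls was 0.51 ± 0.23 (adjusted p = 0.777), so a regional difference particular to mutants was not shown. After quantile normalization the values were 0.54, 0.67 and 0.09 for mutants of 10 weeks, mutants of 6 weeks and controls.

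**Figure D4:**
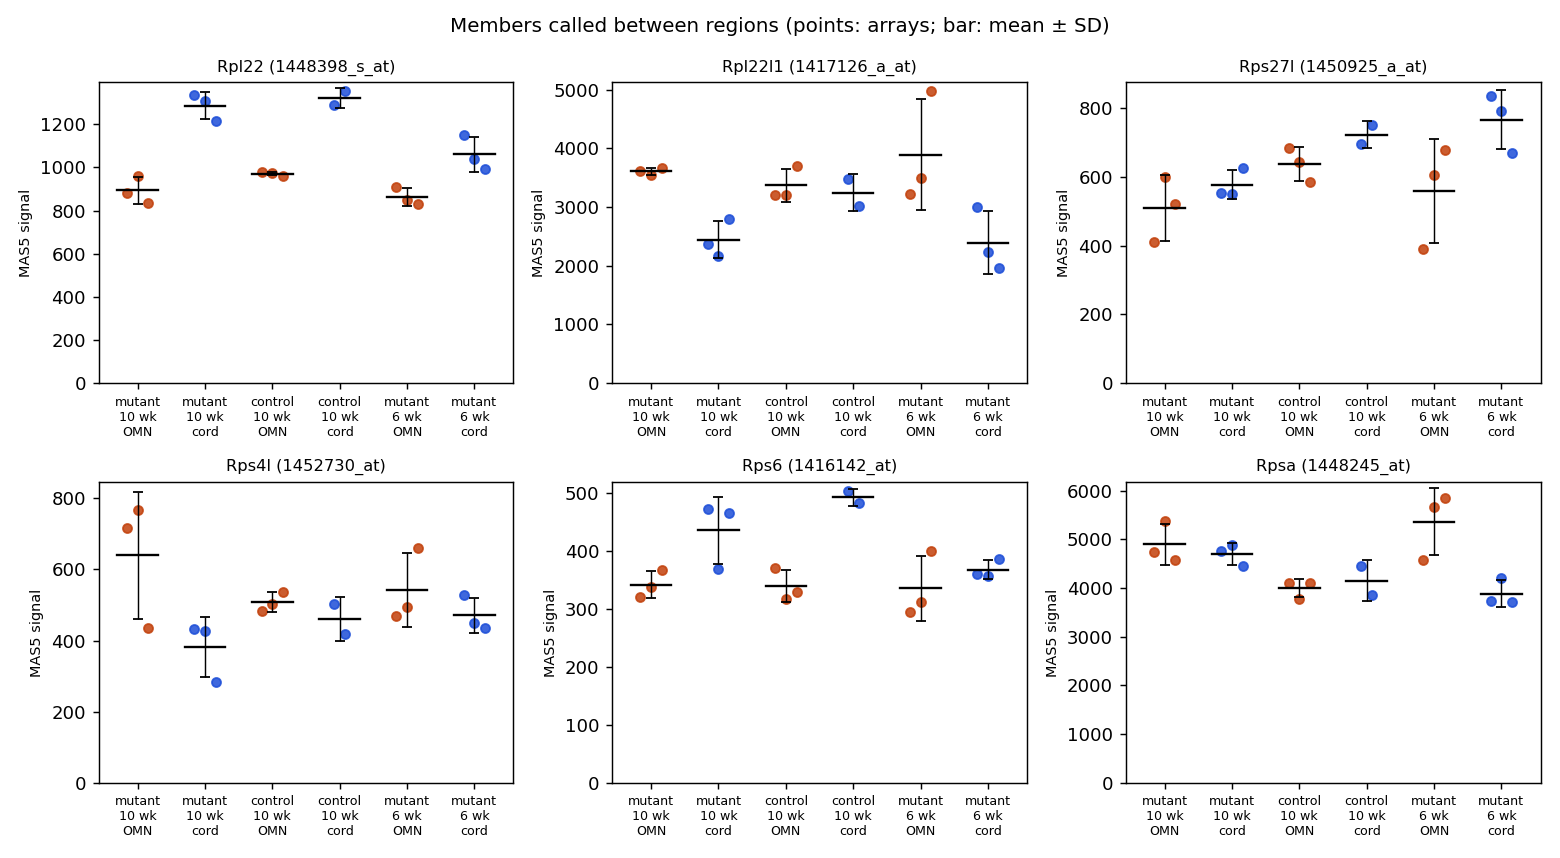
MAS5 signals of 6 ribosomal protein probe sets called in at least 1 regional comparison, on each array (points), by group (horizontal bar, mean; whisker, SD; orange, oculomotor nucleus; blue, spinal cord; each panel's axis starts at 0). Rpl22 was lower in all 3 oculomotor groups, at 828 to 977 against 992 to 1354 in the spinal cord groups, and Rpl22l1 was higher in the oculomotor groups of mutants.

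At 10 weeks fewer members were called between regions. In mutants 4 were called higher and 1 lower (4.94% and 1.23% of 81), with a median of 0.090, while over all tested probe sets 9.3% were called higher and 9.99% lower and the median was 7.6e-04. After quantile normalization the counts were also 4 and 1 (over all probe sets 10.1% and 10%), with a median of 0.057. In controls 0 were called higher and 2 lower (2.47%), with a median of -0.077. Over all tested probe sets 6.62% were called higher and 6.94% lower there, and the median was 0.014. After quantile normalization of controls the counts were 0 and 2 (over all probe sets 6.36% and 7.17%), with a median of -0.022. At an unadjusted p under 0.05, limma gave 0 members higher and 9 lower in controls, and over all tested probe sets 14% were higher and 12.8% lower. The 3 with the smallest p on the higher side there were Rpl7l1 (0.25 ± 0.16, adjusted p = 0.338), Rps24 (0.14 ± 0.17) and Rpl35 (0.14 ± 0.19). Oligodendrocyte markers had 0 of 16 probe sets called higher and 10 lower in mutants, and 0 and 13 in controls. Their signals summed to 123589 to 129005 in mutant oculomotor nucleus, against 145059 to 189838 in the matching spinal cord, and to 93442 to 102699 in control oculomotor nucleus, against 131771 to 162018 in control spinal cord. The Gapdh 3′ to 5′ ratio was 0.786 to 0.832 in mutant oculomotor nucleus, against 0.677 to 0.782 in spinal cord, and 0.741 to 0.786 in control oculomotor nucleus, against 0.798 to 0.816 in spinal cord. Microglia markers had 6 of 9 called lower in mutants and 4 of 9 in controls, and those of meninges 9 and 8 of 9. The part of these in the result was not tested.

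Rps4l, an autosomal paralog of the X-linked Rps4x, was called in mutants of 10 weeks. It had 718, 767 and 436 in the oculomotor nucleus, against 433, 427 and 284 in spinal cord, with replicate 3 the lowest in each region and the lowest oculomotor array just above the highest spinal cord array. The difference was 0.70 ± 0.19 (adjusted p = 0.0139; quantile-normalized 0.70, 0.0153). In controls it was 0.14 ± 0.21 and in mutants of 6 weeks 0.18 ± 0.19. Rps4x itself had 0.078 ± 0.10, -0.26 ± 0.11 and 0.25 ± 0.10 in mutants of 10 weeks, controls and mutants of 6 weeks, with no call.

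Rps28, near the exit of the mRNA channel, and Rps7 were the other 2 called higher in mutants of 10 weeks. The Rps28 probe set called had 9166, 8815 and 7512 in the oculomotor nucleus, against 6828, 6567 and 7075 in spinal cord, a difference of 0.31 ± 0.10 (adjusted p = 0.0351). This probe set was also called at 6 weeks (0.31 ± 0.10, adjusted p = 0.0307) and had -0.054 ± 0.11 in controls. Rps7 was called with another probe set than at 6 weeks (0.46 ± 0.16, adjusted p = 0.0483), and this call ended when any of 13 of the 17 arrays was left out.

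Rps6, the substrate of S6 kinase, was called lower in control oculomotor nucleus. It had 369.7, 317 and 329 there, against 503 and 482 in control spinal cord, with no overlap and a difference of -0.51 ± 0.14 (adjusted p = 0.0191; quantile-normalized -0.53, 0.0187). In mutants of 10 weeks it had 319.8, 338 and 366, against 472, 369 and 466 (-0.33 ± 0.13, adjusted p = 0.0771). In mutants of 6 weeks the arrays overlapped (-0.13 ± 0.13). Rps25 was next on the lower side in mutants of 10 weeks, at -0.34 ± 0.14 (adjusted p = 0.0976). For this probe set of Rps6 the sign was negative in all 3 pairs and the call was made in 1. The gene's other probe set, at signals of 34 to 94.1, lay below the filter and was not tested. Its mean log2 signals in oculomotor nucleus and spinal cord were 6.45 and 6.58 in mutants of 10 weeks. They were 6.23 and 5.96 in controls and 6.35 and 6.32 in mutants of 6 weeks. The control call ended without control oculomotor replicate 2 or either control spinal cord array.

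Rps27l, a paralog of Rps27 that p53 induces in human cells, was the other member called lower at 6 weeks. Its _a_at probe set had 391, 606 and 680.4 in the oculomotor nucleus, against 836, 794 and 671 in spinal cord, which overlapped. The difference was -0.47 ± 0.16 (adjusted p = 0.0451), and after quantile normalization -0.45 (adjusted p = 0.0683). The call ended when any of 10 arrays was left out. The 3 probe sets of Rps27l were negative in each of the 3 regional comparisons, from -0.47 to -0.046. In controls Rps27l was next on the lower side after the 2 called genes (an _x_at probe set, -0.40 ± 0.16, adjusted p = 0.117). Rps27 had -0.37 ± 0.24, 0.14 ± 0.26 and 0.23 ± 0.24 in mutants of 10 weeks, controls and mutants of 6 weeks, with no call.

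Of the other paralogs, Rpl7l1, a relative of Rpl7, had differences between -0.096 and 0.25 over its 2 probe sets and the 3 regional comparisons, and Rpl7 itself between -0.25 and 0.37 over its 3, with no call. Rpl3l, the form of striated muscle, had signals of 8.6 to 54.9 over the 17 arrays, and Rpl39l, best known from testis, of 1.8 to 53.0, so neither was tested. Rpl39 had -0.18 ± 0.13, -0.16 ± 0.15 and 0.15 ± 0.13 in mutants of 10 weeks, controls and mutants of 6 weeks. Rplp0 and Rplp2, the proteins of the stalk that recruits elongation factors, did not pass the test between regions: Rplp0 had -0.28 ± 0.15, -0.28 ± 0.17 and -0.22 ± 0.15 in the same order and Rplp2 -0.096 ± 0.10, -0.08 ± 0.11 and 0.08 ± 0.10. Rplp1, Rpl3, Rpl10, Rpl10l, Rpl5, Rpl26, Rpl35a and Rps27a had no probe set of their own by the rule and were not analysed here.

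Across the 3 regional comparisons 17 members had a positive difference in each, 10 a negative one in each and 54 changed sign, while over all 13575 tested probe sets these were 3925, 3442 and 6208. No member other than Rpl22 was called in all 3. The regional comparisons use separate arrays, but each shares its arrays with the genotype or age comparisons below.

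Between genotypes, the oculomotor nucleus of mutants had 2 members called higher and 0 called lower than controls at 10 weeks (2.47% and 0% of 81). Over all tested probe sets 1.04% were called higher and 0.435% lower. The median member was higher by 0.17, against a median of -0.0081 over all tested probe sets, and 71 of 81 members (87.7%) had a positive difference, against 48.3% of all. After quantile normalization the median was 0.066, 60 of 81 (74.1%) were positive, and 1 was called higher and 0 lower (over all probe sets 0.855% and 0.258%). The arrays did not overlap for 30 members that were higher and 2 that were lower, and over all tested probe sets for 11.7% and 12.3%. At an unadjusted p under 0.05, 18 members were higher and 1 lower of the 81, and over all tested probe sets 7.34% were higher and 7.57% lower. After quantile normalization 7 of the 81 members were higher and 1 lower at that level. Of all 13575 tested probe sets, 925 were then higher and 887 lower.

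Rpl27a, a large subunit protein mutated in a mouse with ataxia and dark feet, had 308, 244 and 189 in mutant oculomotor nucleus, against 120.1, 119.5 and 114 in controls. All 3 mutant arrays lay above the controls, which were close together, and the difference was 0.91 ± 0.18 (1.87-fold, adjusted p = 0.0165; quantile-normalized 0.89, 0.0172). In spinal cord it had 209.8, 179 and 229 in mutants, against 173 and 175 in controls (0.21 ± 0.20). The difference between these was 0.70 ± 0.27 and was not called (adjusted p = 0.747). In mutant oculomotor nucleus of 6 weeks the signals were 256, 262 and 189, within the range of the mutants of 10 weeks for 2 of 3 arrays. This probe set was dim for a member, with a mean log2 signal of 7.72 against a filter limit of 7.38. The gene's other probe set, at 3.2 to 40.5 over the 17 arrays, lay below the filter and was not tested.

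Rpl4 had 8735, 9270.1 and 8943 in mutant oculomotor nucleus, against 7031, 7192 and 6841 in controls, with no overlap. The difference was 0.35 ± 0.08 (1.28-fold, adjusted p = 0.036), but after quantile normalization 0.16 with an adjusted p of 0.202. The calls of both genes depended on single arrays: without any 1 of the 3 control oculomotor arrays, or without mutant replicates 1 or 2, 0 members were called, and without mutant replicate 3 only Rpl27a. Without mutant replicate 2 and control replicate 3, the 2 arrays with pituitary hormone signals, 0 members were called.

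Further members gave values but no call in this comparison. Rps29 (an _x_at probe set) had 12919, 13804 and 12202 in mutants, against 9097, 10459.7 and 9315 in controls (0.43 ± 0.12, adjusted p = 0.0808; quantile-normalized 0.11). On the negative side the smallest p was that of Rps9, a protein that affects decoding accuracy, with its _x_at probe set, at 529, 344 and 644 in mutants, against 1010.5, 676 and 1012 in controls. Its difference was -0.82 ± 0.22 (adjusted p = 0.0683), while its _s_at probe set had 0.17 ± 0.10 (adjusted p = 0.464). The 2 groups of arrays did not overlap for the first of these probe sets. The next on that side were Rps27l (-0.32 ± 0.16) and Rpl22 (_s_at, -0.12 ± 0.09). The _at probe set of Rpl22 had 0.27, of opposite sign, and was not called. Of the marker lists, that of oligodendrocytes had 3 of 16 probe sets called higher and 0 lower (1 and 0 after quantile normalization). Its signals summed to 123589 to 129005 in mutant oculomotor nucleus, against 93442 to 102699 in controls, and the Gapdh 3′ to 5′ ratio was 0.786 to 0.832, against 0.741 to 0.786. The microglia list had 1 of 9 probe sets called higher and 0 lower. The 1 tested serotonin neuron probe set was called higher (0.82), and the list's signals summed to 1986 to 2640.1 in mutants, against 1161 to 1391 in controls. Markers of neurons in general summed to 35319.8 to 35844 in mutants, against 32501 to 33768 in controls, with 0 of 7 called. Those of ependyma and choroid plexus summed to 426 to 694 in mutants, against 405 to 15623 in controls. The part of these in the member differences was not tested.

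**Figure D5:**
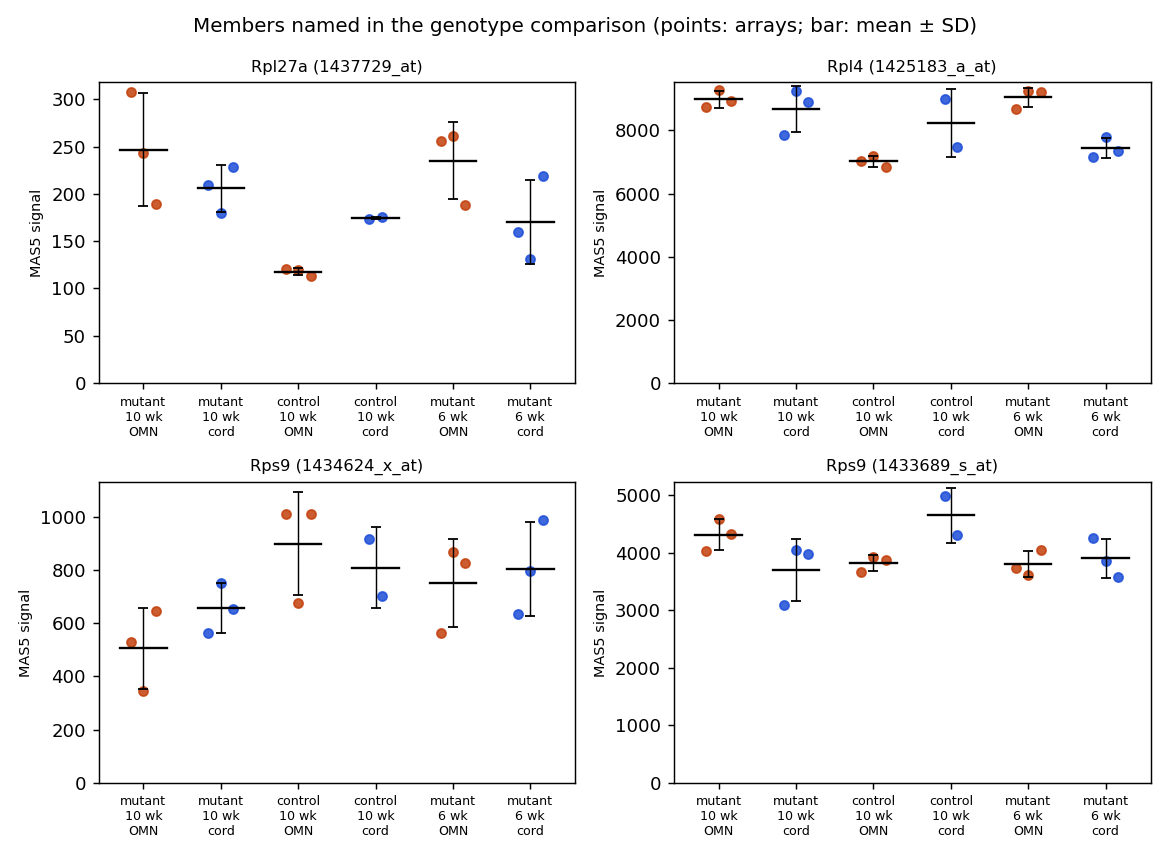
MAS5 signals of 4 ribosomal protein probe sets named in the genotype comparison, on each array (points), by group (horizontal bar, mean; whisker, SD; orange, oculomotor nucleus; blue, spinal cord; each panel's axis starts at 0). Rpl27a was at 189 to 308 in mutant oculomotor nucleus of 10 weeks, against 114 to 120.1 in controls, and the 2 probe sets of Rps9 had differences of opposite sign.

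In spinal cord 0 members were called between genotypes in either direction, and over all tested probe sets limma called 0.0147% higher and 0.00737% lower. The median member was -0.027. At an unadjusted p under 0.05, 1 member was higher and 6 lower in mutants, and over all tested probe sets 6.62% were higher and 5.13% lower. The higher one was Rps25, which some viral mRNAs need for translation, with 237, 267 and 275 in mutants, against 201 and 167 in controls (0.45 ± 0.15, adjusted p = 0.288). The Rps25 probe set was dim for a member, with a mean log2 signal of 7.79 against a filter limit of 7.38. The next by p were Rps24 (0.21 ± 0.10) and Rps27 (0.50 ± 0.26). On the lower side Rps27l (-0.49 ± 0.16), Rps9 (_s_at, -0.33 ± 0.12) and Rpl7 (-0.46 ± 0.17) had the smallest p, with adjusted p of 0.273, 0.291 and 0.315.

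The genotype difference in the oculomotor nucleus minus that in spinal cord gave 0 calls among the members, as among all probe sets (0% higher and 0% lower). The median member was at 0.18, against -0.012 over all tested probe sets, and 0.12 after quantile normalization. At an unadjusted p under 0.05, 10 members were positive and 0 negative, and over all tested probe sets 2.67% were positive and 3.48% negative. Rps9 (_s_at) had 0.51 ± 0.15, Rpl27 0.65 ± 0.22 and Rpl7 0.62 ± 0.23, with adjusted p of 0.73, 0.734 and 0.747. On the negative side Rps25 had -0.41 ± 0.21 and Rps27 -0.51 ± 0.35, with adjusted p of 0.822 and 0.839. The _x_at probe set of Rps9 had -0.53 ± 0.33, so that the gene's probe sets were 1.04 apart, the only case of a distance above 1 among the 19 genes with several tested probe sets.

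With age, 0 members were called in mutant oculomotor nucleus between 10 and 6 weeks (over all tested probe sets 0.0221% higher and 0% lower), and 0 in mutant spinal cord (1.78% and 0.972%). The median member was at -0.064 in the oculomotor nucleus and at -0.016 in spinal cord. At an unadjusted p under 0.05, limma gave in the oculomotor nucleus 0 higher members and 4 lower ones, and in spinal cord 8 and 5. Over all tested probe sets these shares were 4.36% and 4.46% for the oculomotor nucleus, and 11.6% and 8.57% for spinal cord. In spinal cord Rps25 had 237, 267 and 275 at 10 weeks, against 197, 149 and 185 at 6 weeks (0.50 ± 0.14, adjusted p = 0.0591). Rpl12, at the base of the stalk, had 173, 179.9 and 182, against 102, 112 and 143 (0.50 ± 0.14, adjusted p = 0.0663). Both groups of arrays were apart for these genes, and neither passed the threshold. Both probe sets were dim for members, with mean log2 signals of 7.79 (Rps25) and 7.48 (Rpl12) against a filter limit of 7.38. Rpl13a had 0.34 ± 0.11 on the higher side, with its 4 tested probe sets running from -0.18 to 0.34. On the lower side Rpl27 had -0.55 ± 0.19, Rps27l -0.38 ± 0.15 and Rps7 -0.38 ± 0.16. In the oculomotor nucleus the lowest p were those of Rps9 (_x_at, -0.57 ± 0.22), Rpl13a (-0.21 ± 0.09) and Rps2 (-0.25 ± 0.11) among the lower members, and of Rps9 (_s_at, 0.18 ± 0.10), Rps25 (0.21 ± 0.14) and Rpl7l1 (0.22 ± 0.14) among the higher. The probe sets of Rps9 thus differed in sign here too, as did those of Rpl13a (-0.21 to 0.23) and Rpl7l1 (-0.072 to 0.22). None of these members was called.

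The age difference in the oculomotor nucleus minus that in spinal cord gave 0 calls among the members (over all tested probe sets 0.14% positive and 0.228% negative), with a median of -0.072. Rps3 had -0.48 ± 0.16 (adjusted p = 0.156), Rpsa -0.40 ± 0.14 and Rpl13a -0.42 ± 0.15 on the negative side. Over its 4 tested probe sets, however, Rpl13a ran from -0.42 to 0.41. Rps4l had 0.51 ± 0.27, Rps9 (_s_at) 0.26 ± 0.15 and Rpl27 0.47 ± 0.27 on the positive side, with no call. At an unadjusted p under 0.05, 0 members were positive and 9 negative, and over all tested probe sets 7.02% were positive and 9.05% negative. Quantile normalization gave 0 and 5 of the 81 members, against 998 positive and 1050 negative of all 13575 tested probe sets. The members' median was then 0.012, with the other sign. These 9 use the 6-week oculomotor arrays, as does the regional comparison at 6 weeks.

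Rps19, Rps24, Rps26, Rps10 and Rpl11, all mutated in Diamond-Blackfan anaemia in people, were called in no comparison. Rps19, the gene most often affected, had 2744, 2858 and 2439.9 in mutant oculomotor nucleus of 10 weeks, against 1912, 2293 and 2283 in mutant spinal cord (0.31 ± 0.13, adjusted p = 0.114), and 0.16 ± 0.13 between genotypes in the oculomotor nucleus. Rps26 had 0.15 ± 0.11 between regions and 0.24 ± 0.11 between genotypes there, and Rpl11, which binds Mdm2 together with Rpl5, 0.18 ± 0.16 and 0.30 ± 0.16. The 4 tested probe sets of Rps24 had 0.014 to 0.40 between regions in mutants of 10 weeks. The 5 of Rps10 had -0.19 to 0.15. Other genes chosen for well known roles or disease links, Rps7 among them, were called between regions, as given above. The uncalled genes named here thus do not stand for all disease genes of the family.

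Probe sets of one gene differed among themselves. Of the 19 genes with more than 1 tested probe set, none had calls in opposite directions, and the median distance between a gene's highest and lowest difference, over the 9 comparisons, was 0.22, which is more than the size of the members' median difference in any of them (at most 0.18). Of the 100 probe sets 40 carry the suffix _x_at and 2 _s_at, which mark probes shared with other transcripts, and ribosomal protein genes have many processed pseudogenes. Among the 42 tested probe sets without these suffixes, 9 were called higher and 1 lower at 6 weeks between regions, with a median of 0.20, and among the 39 with them 7 and 1, with a median of 0.084. Quantile normalization gave 5 and 0 without the suffixes, with a median of 0.096, and 0 and 1 with them, with a median of 0.024. The 89 tested probe sets that list a ribosomal protein gene beside other symbols gave 17 higher and 1 lower, with a median of 0.18, and 5 and 1 after quantile normalization. Over all tested probe sets 12.2% were called higher and 11.7% lower, and 10.7% and 11.3% after quantile normalization.

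Other genes of translation were described by counts alone. Over all tested probe sets 12.2% were called higher and 11.7% lower between regions at 6 weeks. After quantile normalization these shares were 10.7% and 11.3%. Of 107 tested probe sets for the mitochondrial ribosome, 11 were called higher and 1 lower between regions at 6 weeks, with a median of 0.050, and 11 and 1 after quantile normalization. Of 80 for initiation factors 2 were called higher and 1 lower, with a median of -0.0083. Of 14 for elongation and related genes 3 were called higher and 1 lower: Eef1a1, which brings tRNA to the ribosome, by 0.55 ± 0.09 (adjusted p = 1.39e-04), its neuronal form Eef1a2 by 0.35 ± 0.08 and Eef2, the translocase, by 0.31 ± 0.08, while Pabpc1, the poly(A)-binding protein, was called lower (-0.50 ± 0.08, adjusted p = 2.71e-04). Their median was -0.017. After quantile normalization 1 of the 14 was called higher and 1 lower. Of 47 for ribosome biogenesis 2 were called higher and 0 lower, with a median of 0.056. Of 15 for mTOR and S6 kinase genes 1 was called higher, Rps6kb2, an S6 kinase (0.84 ± 0.26, adjusted p = 0.0223), and 0 lower, with a median of 0.16. Larp1 had 0.19 ± 0.11. Fau, whose product is a small subunit protein fused to a ubiquitin-like one, had 0.17 ± 0.13. Of these 5 lists and Fau 1 probe set, of the mitochondrial ribosome and lower, was called between genotypes in the oculomotor nucleus, and 0 were called higher.

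Over the 17 arrays the members correlated with each other, with a median pairwise r of 0.37 as deposited and 0.20 after quantile normalization. Of the probe sets outside the members, the 5 with the highest Pearson r with the members' mean profile reached 0.91 to 0.97. Naca, a chaperone at the ribosome's exit, was 1 of them (0.91), 3 listed a ribosomal protein gene beside other symbols and 1 had no symbol. The 5 lowest ran from -0.87 to -0.85 and included Ednrb, Timp3, Lin7c and Smad5. The points share each array's brightness, so these values are a description.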

How the data were processed

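RNA of 18 tissue samples in 6 groups was labelled with biotin and measured on Affymetrix mouse 430A arrays. The deposited intensity values are signals that the authors computed with MAS5, per the submitters' processing notes, and they have a trimmed mean of 500 on every array. Their precision is limited by the 3 arrays of a group. Of the 22690 probe sets, 64 controls were removed, and of the rest 20380 have 1 gene symbol in the array's annotation, 691 several and 1555 none.

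The values were analysed as log2(signal + 25) after leaving out the dimmest 40% of probe sets by mean over arrays, and 13575 remained. limma 3.58.1 in R 4.3.3 fitted 1 mean per group over 17 arrays (11 residual degrees of freedom, eBayes with a trend), with Benjamini-Hochberg adjustment over all tested probe sets within each of 9 comparisons. These were oculomotor nucleus over spinal cord in 3 conditions, mutant over control and 10 over 6 weeks in each region, and the difference of each of the last 2 between regions. An adjusted p under 0.05 made a call. All adjusted p-values in the text are limma's, two-sided. The fit was tested on simulated data. Replicate numbers are shared between groups, but nothing in the labels ties equal numbers to a shared animal or day, so the samples were not paired.

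Named are up to 6 called genes with the smallest p in each direction and comparison, or 3 where fewer than 3 were called. Also named are listed paralogs, stalk genes, genes with well known roles or disease links, and genes whose probe sets differ by more than 1 on the log2 scale. Rpl41 and, at 6 weeks, Rps2 and Rps28 were named to complete the list of calls. The members and lists were chosen with earlier results of these data known. Promoter sequences are RefSeq's of GRCm38.p6 and were matched by gene identifier. Alternatives were other offsets, filters, normalizations, sample sets and fits.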

Additional observations from a re-analysis of the deposited data

How the results depend on the processing

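With the settings above, 18 ribosomal protein probe sets were called between regions at 6 weeks, 5 and 2 in mutants and controls of 10 weeks, 2 between genotypes in the oculomotor nucleus, and 0 in the other 5 comparisons. Quantile normalization gave 6 at 6 weeks and 1 between genotypes, and median centring 9 at 6 weeks. Without the filter on low signals, mutants of 10 weeks had 3, genotype 1 and age in spinal cord 1, and with a filter of 60% genotype had 1. Without the trend these were 3, 1 and 2. With the arrays of each comparison alone, 9 were called at 6 weeks and 4 between genotypes. With 1 probe set per gene, controls had 1 and mutants of 10 weeks 2, of fewer probe sets. Without _x_at and _s_at probe sets, 6 weeks had 10, controls 1 and mutants of 10 weeks 2. With all 18 arrays, these 3 regional comparisons and genotype in the oculomotor nucleus gave 0. Without the 2 arrays with pituitary signals, controls had 1, mutants of 10 weeks 2 and genotype 0. A rule of arrays without overlap and group means more than 2-fold apart gave 0 in each of these 4. Since no member changed by 2-fold, this rule could give no other count. The cause was not tested. For changed fits here and below, other than quantile normalization, the share of all probe sets called was not computed. Changes in these counts are therefore not a result about the members alone.

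Replicate numbers are shared only as labels, and the deviations of equal-numbered arrays had correlations between -0.09 and 0.13. With the replicate block, 20 were called at 6 weeks, 7 and 2 in mutants and controls of 10 weeks, 4 between genotypes in the oculomotor nucleus and 0 elsewhere.

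Leaving out 1 array at a time gave 6 to 31 at 6 weeks, 2 to 7 in mutants and 1 to 3 in controls of 10 weeks, 0 to 2 between genotypes in the oculomotor nucleus, 0 to 1 with age in spinal cord, and 0 in the other 4. Mutants of 10 weeks fell to 2 without oculomotor replicates 1 or 2 and to 3 without spinal cord replicates 1 or 2, and age in spinal cord reached 1 without oculomotor replicate 1 of 6 weeks. Controls had 1 without oculomotor replicate 2 or either spinal cord array. A floor of 25 in place of the offset and an offset of 100 kept every count within 1.5 times. After quantile normalization the members' median difference was 0.077 in place of 0.16 between regions at 6 weeks, 0.066 in place of 0.17 between genotypes in the oculomotor nucleus, and 0.012 in place of -0.072 for the age difference between regions. Of the 27 calls of single probe sets, 12 were kept and 15 lost after quantile normalization, and 18 kept and 9 lost after median centring, and none changed sign under these or without any single array.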
